A study of Mus musculus with 3 samples.

Results

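The 7 genes described here are Dppa2, Dppa3, Dppa4 and Dppa5a, named as developmental pluripotency associated genes, together with Tdh, Utf1 and Fgf4, 3 further transcripts typical of undifferentiated mouse stem cells. They were picked by symbol from the 32285 genes of the deposited count tables, and all 7 were found. Each was followed in single-cell libraries as its summed level, the share of cells in which it was detected and its spread between cells. The material was E14, an established line of mouse embryonic stem cells of 129/Ola background, grown in all groups on gelatin in medium with serum and leukemia inhibitory factor, a cytokine that keeps these cells undifferentiated. From 24 h after seeding, 1 culture group received ethanol alone for 6 h (control), and the others received 250 µg/mL cycloheximide, a drug that stops ribosomes during elongation, in 0.007% ethanol for 3 h or for 6 h. Detached cells were frozen and shipped before they were captured with 10x Genomics 3′ chemistry, which tags each captured polyadenylated molecule with a unique molecular identifier (UMI). Each group was 1 library of 1 cell line, and the 3 h group had no ethanol control of its own duration.

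Dppa2 and Dppa4 encode small chromatin-bound proteins that work as a pair at germline and early embryonic gene promoters. Dppa3, also called Stella, encodes a maternal and germ cell protein that shields DNA from methylation by binding Uhrf1, and in serum culture it is known to be made by a minority of stem cells. Dppa5a encodes a KH-type RNA-binding protein, Tdh encodes the mitochondrial threonine dehydrogenase that supplies glycine and acetyl-CoA in mouse stem cells, and Utf1 encodes a chromatin-associated protein. Fgf4 encodes a secreted ligand that signals through FGF receptors and ERK and prepares stem cells to leave the naive state. Fgf4 and Utf1 are textbook targets of Oct4 and Sox2.

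Cells were barcodes with at least 15000 UMIs and 1 to 20% mitochondrial UMIs, leaving 2187 for the control, 1739 for 3 h and 2554 for 6 h. The lower mitochondrial limit left out 62, 1 and 8 barcodes in the same order. Median UMIs per cell were 43160, 51726 and 46200, and 1 to 3 cell barcodes were shared by any pair of libraries. Of the stem cell genes that define the labelled cell type, Pou5f1 was at 533, 579 and 465 CPM for control, 3 h and 6 h. Sox2 was at 213, 285 and 146 CPM, Nanog at 123, 175 and 145, and Esrrb at 64.0, 95.1 and 57.7. Markers of other cell types differed in level, and some lists were uneven between libraries, while the primitive endoderm sum was even. On the CPM scale, which sets every library to the same total, 14 primitive endoderm markers summed to 185 to 189. Most of this was Sparc, at 137, 140 and 149.9 CPM for control, 3 h and 6 h. Lama1, the other one tested, was at 17.1, 18.9 and 13.0 CPM. Without Sparc the primitive endoderm sum was thus lower at 6 h. The 10 mesoderm markers summed to 6.04 in the control, 7.37 after 3 h and 10.996 after 6 h. In the order control, 3 h and 6 h, the 9 neural markers summed to 82.0, 59.7 and 43.5 CPM, and the 10 fibroblast markers to 270.1, 198 and 164 CPM, with Col3a1 and Lum at 0 in every library. Tubb3, the 1 neural gene tested, was at 65.3, 35.1 and 18.6 CPM, or -0.89 and -1.81 log2. The mesenchymal gene Vim was at 180.5, 105.0 and 78.3 CPM, or -0.78 and -1.20. Fn1, the other fibroblast gene tested, was at 0.06 and -0.05 log2. The lower sums thus lay mainly in Tubb3 and Vim, and the remaining neural markers together were not lower. The 10 trophoblast markers summed to 42.9 to 47.6 CPM, with Elf5 at 0 throughout, Krt8 at -0.43 and -0.79 log2 and Tfap2c at 1.11 and 1.24. Their part in the values below was not tested.

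Levels are UMIs summed over the cells of a library, divided by all UMIs in those cells and given as CPM. With 1 library per group there is no replicate check and no test between groups, and the 95% intervals given are exact intervals for counting error only. A gene was counted as higher or lower where its log2 ratio of CPM reached 0.5 in that direction. Across the 7608 genes that averaged 10 CPM or more, the median log2 ratio to the control was 0.11 for 3 h and 0.17 for 6 h, and 6 h against 3 h gave 0.04. TMM scaling removed most of this offset by moving every ratio by -0.11, -0.16 and -0.04, whereas UMIs per cell, not divided by library totals, moved them by 0.27, 0.11 and -0.16. Of these 7608 genes, 17.9% were higher and 3.21% lower at 3 h, and 26.6% were higher and 9.69% lower at 6 h. With TMM the shares were 12.9% and 5.86% at 3 h, and 19% and 15% at 6 h. With UMIs per cell they were 37.1% and 1.08%, and 33% and 7.19%. For 6 h against 3 h, 3.23% were higher and 3.68% lower, with 2.3% and 4.6% under TMM and 1.09% and 7.98% by UMIs per cell.

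Against this background the 7 genes split. After 6 h of cycloheximide Utf1 and Fgf4 were lower, Dppa3 was higher, and Dppa2, Dppa4, Dppa5a and Tdh lay within 0.20 log2 of the control under CPM. After 3 h only Fgf4 had passed 0.5 in either direction under CPM and TMM, whereas by UMIs per cell Fgf4 did not pass and Dppa2 (0.61), Dppa4 (0.54) and Dppa3 (0.74) were higher. The 7 genes had a median of 0.16 log2 after 3 h and 0.03 after 6 h, beside 0.11 and 0.17 for all genes. Under TMM the 6 h median was -0.12. All but Dppa3 averaged 10 CPM or more.

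**Figure D1:**
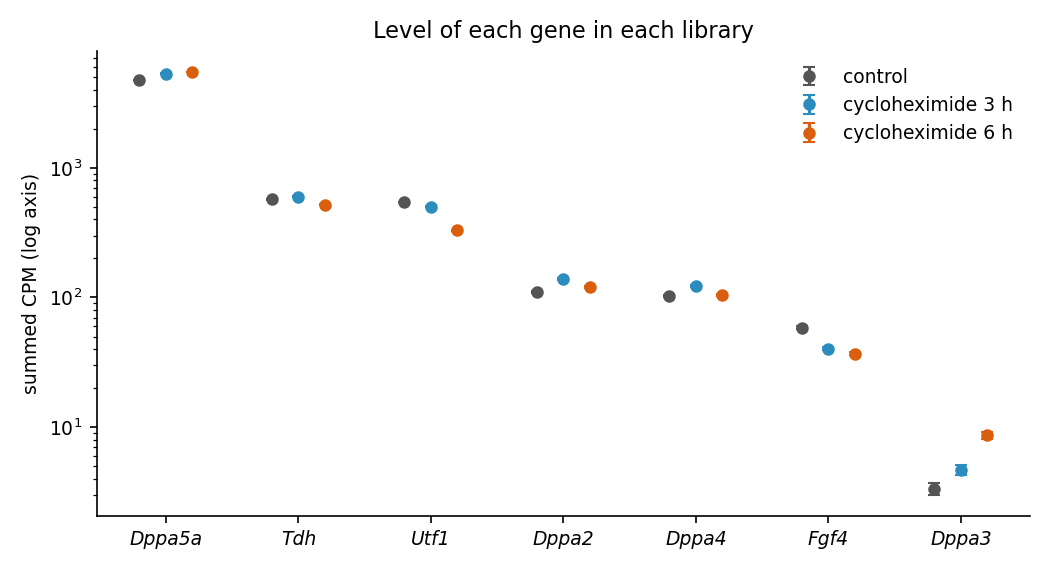
Summed CPM of each gene in the 3 libraries, on a log axis, with exact 95% Poisson intervals that are mostly smaller than the points. Dppa5a lies between 4771 and 5475 CPM and Dppa3 below 10 CPM, and the 6 h point of Utf1 lies well below its control and 3 h points.

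Fgf4 was the one gene of the group that was already lower at 3 h. Its level was 58.6 CPM in control cells, 40.3 after 3 h and 36.8 after 6 h. Against the control it was at -0.54 log2 after 3 h (95% interval -0.60 to -0.49) and -0.67 after 6 h (-0.72 to -0.62), which is 31.3% and 37.1% less. The 2 treated libraries were close to each other, at -0.13 for 6 h against 3 h (-0.19 to -0.07). The control was the highest of the 3 libraries under every scaling tried, but the 3 h ratio was -0.27 by UMIs per cell and fell short of 0.5 when barcodes under 1% mitochondrial UMIs were kept. Among all tested genes, 2.62% had a lower ratio at 3 h and 5.88% at 6 h.

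Utf1 differed mainly between 3 h and 6 h. It stood at 545 CPM in control cells, 501 after 3 h and 329 after 6 h. The log2 ratio was -0.12 at 3 h (-0.14 to -0.10), and this direction reversed to 0.15 by UMIs per cell. At 6 h it was -0.73 (-0.75 to -0.71), or 39.6% less than the control, and it remained between -0.62 and -0.89 under every scaling. The log2 ratio of 6 h to 3 h was -0.61 (-0.63 to -0.59), and 2.39% of tested genes had a lower one.

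The promoters of Fgf4 and Utf1, both lower at 6 h, are shown, as the members for which a promoter sequence was at hand. Utf1 spans chr7:139943789-139945112 and Fgf4 chr7:144847367-144865243, both on the plus strand (GENCODE M21, GRCm38). The 250 bases upstream of each transcript start are from RefSeq on GRCm38.p6, at chr7:139943606-139943855 for Utf1 and chr7:144861136-144861385 for Fgf4, and both RefSeq starts lie inside the GENCODE gene. Capitals mark matches, on either strand, to GGGCGG (the GC box), CCAAT (reverse ATTGG) and TATATA.
Utf1: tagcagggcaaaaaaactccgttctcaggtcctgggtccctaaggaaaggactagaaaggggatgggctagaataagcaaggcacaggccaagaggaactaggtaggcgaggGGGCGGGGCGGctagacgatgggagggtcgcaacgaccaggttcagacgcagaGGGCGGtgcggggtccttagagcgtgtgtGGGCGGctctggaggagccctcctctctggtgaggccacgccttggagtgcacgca
Fgf4: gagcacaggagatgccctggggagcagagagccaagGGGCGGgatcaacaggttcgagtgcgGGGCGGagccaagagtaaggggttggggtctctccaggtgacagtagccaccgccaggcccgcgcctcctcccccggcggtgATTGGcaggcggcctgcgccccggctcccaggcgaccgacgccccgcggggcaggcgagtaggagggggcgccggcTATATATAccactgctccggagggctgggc
The Utf1 window is 61.6% G and C and holds 4 GC boxes, of which 2 overlap. The Fgf4 window is 71.2% G and C, with 2 GC boxes, 1 CCAAT match on the reverse strand and 2 overlapping TATATA matches, the nearer one beginning 28 bases before the transcript start. Among 32544 promoter windows of this length the median content of G and C was 52.4%. A GC box was present in 33.0% of them, CCAAT in 33.8% and TATATA in 5.01%. Neither window held the octamer ATGCAAAT, found in 1.62% of all windows. These matches describe letters only and do not show that a factor binds.

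Fgf4 has a further regulatory stretch in its last exon, where an element joining a Sox and a POU motif is known. The transcripts of the tested genes were searched on both strands for CTTTGT or CATTGT followed within 0 to 8 bases by ATGC, any base and AAT. Fgf4 held 1 match, in exon 3 of 3 and inside the 3′ UTR, at chr7:144864388-144864417 on the plus strand, shown with the motif pair in capitals.
Fgf4 site: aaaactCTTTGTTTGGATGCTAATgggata
A match was present in 8 of 7492 tested genes with a coding transcript (0.107%), and in none of the other members. Sequence outside the transcripts and other forms of the motifs were not searched. The lack of a match, as in Utf1, thus does not show that such an element is absent. The Fgf4 3′ UTR is 2302 bases long with 6 ATTTA pentamers, a sequence found in many short-lived messages. Tdh had 2 such pentamers and Dppa2 and Dppa3 had 1 each, while Dppa4, Dppa5a and Utf1 had 0. Of the tested genes, 68.6% had at least 1, and the median 3′ UTR length was 1049 bases. Within these 7 genes, Utf1 had a 3′ UTR of 122 bases and no pentamer and Fgf4 the longest 3′ UTR, and both were lower at 6 h.

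A list of stem cell transcription factor genes was examined as possible regulators of Fgf4 and Utf1. Whether each acts on either gene was not tested. The tested ones had a median of 0.42 log2 after 3 h and -0.20 after 6 h, beside 0.11 and 0.17 for all genes. Of 14 transcription factor genes on this list, 11 were abundant enough to be tested. At 3 h 4 were higher and 1 was lower, or 2 and 1 under TMM and 9 and 0 by UMIs per cell. At 6 h 1 was higher and 4 were lower under CPM and TMM alike, or 1 and 3 by UMIs per cell. From 3 h to 6 h 6 of the 11 were lower, or 8 by UMIs per cell. Klf5, a naive state factor, was at 358, 446 and 165 CPM, with a log2 ratio of -1.11 at 6 h. Zfp42, a classical marker of undifferentiated cells also called Rex1, was at 455, 592 and 239.6 CPM, with -0.93 at 6 h. Tfcp2l1, another naive state factor, was at 80.4, 51.1 and 38.7 CPM and was lower at both times, at -0.65 and -1.06. Klf2 was higher at both times, at 196, 368 and 332 CPM, or 0.91 and 0.76 on the log2 scale. Sox2 was at 213, 285 and 146 CPM and Pou5f1 at 533, 579 and 465, both highest at 3 h and lowest at 6 h.

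Other genes of FGF signalling were examined next. Of 9 other ligand genes, Fgf17 alone was tested, at 51.6 CPM in control cells, 44.0 after 3 h and 30.5 after 6 h, the last at -0.76 on the log2 scale. Of 32 genes for receptors, coreceptors and signal transfer, 21 were tested. None was past 0.5 at 3 h under CPM, where TMM gave 1 lower and UMIs per cell 3 higher. At 6 h 2 were higher and 2 lower, or 3 and 1 by UMIs per cell. The higher ones under CPM were the kinase genes Araf (0.72) and Braf (0.69), and the lower ones were the adaptor gene Shc1 (-0.64) and Ext1 (-0.55), which builds the heparan sulfate chains that FGF ligands need. The median of the 21 genes was -0.06 at both times, beside 0.11 and 0.17 for all genes.

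**Figure D2:**
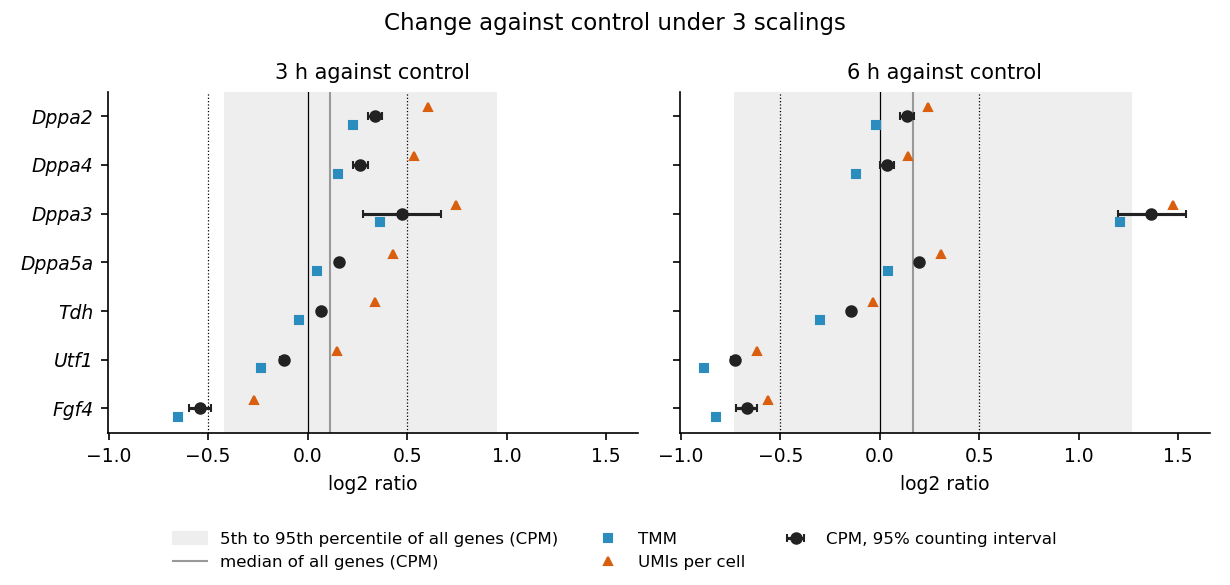
Log2 ratio of each gene at 3 h and at 6 h against the control, with CPM and its 95% counting interval, TMM and UMIs per cell, over the 5th to 95th percentile of 7608 genes; dotted lines mark 0.5 in each direction. At 6 h Utf1 and Fgf4 stay below -0.5 and Dppa3 above 0.5 under all 3 scalings, whereas Tdh and Utf1 at 3 h and Dppa2 and Dppa4 at 6 h change side of 0 with the scaling.

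Dppa2 and Dppa4, the chromatin pair, lie next to each other on chromosome 16. Dppa4 spans chr16:48283733-48294237 and Dppa2 chr16:48303908-48319723, both on the plus strand, 9671 bases apart. Dppa2 was at 109.9 CPM in control cells, 139 after 3 h and 121 after 6 h. Dppa4 was at 102, 122 and 104 CPM. Both were highest at 3 h, with log2 ratios of 0.34 (0.30 to 0.37) for Dppa2 and 0.27 (0.23 to 0.30) for Dppa4, and both passed 0.5 at that time by UMIs per cell. At 6 h neither was separated from the control across scalings. Dppa2 had 0.14 under CPM and -0.02 under TMM, and Dppa4 had 0.03 (interval -0.0015 to 0.07) under CPM and -0.12 under TMM. From 3 h to 6 h the log2 ratios were -0.20 and -0.23, and both were negative under every scaling. Morc1, which follows Dppa2 on the chromosome at a gap of 111514 bases, was at 36.8, 43.4 and 44.3 CPM.

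Genes that the pair is known to prime or activate were few at these depths. Of 15 germline genes on this list 4 were tested. None was past 0.5 at 3 h under CPM, where TMM gave 1 lower and UMIs per cell 2 higher. At 6 h Sycp3, a meiotic chromosome protein gene, was higher at 0.63 and Rpl10l at 0.57, while the germ cell helicase gene Ddx4 was lower at -0.51. Under TMM neither Sycp3 nor Rpl10l passed 0.5, and by UMIs per cell 3 were higher and 0 lower. Of 23 genes of the 2-cell-like state, such as the Zscan4 family, 20 were in the tables and 0 reached 10 CPM. Together they had 91 UMIs (0.817 CPM) in control cells, 479 (4.48 CPM) after 3 h and 30 (0.214 CPM) after 6 h. Of them, Zscan4e, Zfp352, Tcstv1 and Usp17lb were at 0 in all libraries. The near-identical members of these families share sequence, so the split of UMIs between them is uncertain.

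Dppa3 was the least abundant of the 7 genes and the one with the largest ratio. It lies at chr6:122626410-122630272 on the plus strand. Its level was 3.36 CPM in control cells (374 UMIs), 4.66 after 3 h (498 UMIs) and 8.65 after 6 h (1214 UMIs). The 3 counting intervals did not overlap. The log2 ratio was 0.47 at 3 h (0.28 to 0.67), 1.36 at 6 h (1.20 to 1.54) and 0.89 for 6 h against 3 h (0.74 to 1.05). The 6 h level was 2.58-fold that of the control. Because its mean was under 10 CPM, the fitting background is the 2707 genes of 3 to 10 CPM, of which 28.3% were higher and 6.87% lower at 3 h, 37.4% and 13.3% at 6 h, and 12.4% and 5.28% from 3 h to 6 h. Dppa3 in barcodes of 10 to 100 UMIs, which hold free RNA, was at 3.06 CPM (11 UMIs), 5.75 CPM (19 UMIs) and 9.95 CPM (39 UMIs), near the level in cells.

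Its neighbours on chromosome 6 are stem cell genes as well. Gdf3, a growth factor gene 16323 bases away, was at 142, 213 and 279.7 CPM, with log2 ratios of 0.59 and 0.98. Nanog, a core pluripotency factor gene 77217 bases away, was at 123, 175 and 145 CPM, or 0.50 and 0.24. Slc2a3, a glucose transporter gene, was at 177, 197 and 168 CPM, or 0.15 and -0.08. Gdf3 was highest at 6 h, as Dppa3 was, whereas Nanog and Slc2a3 were highest at 3 h. A processed pseudogene of Dppa3 is annotated on the X chromosome and is not among the listed genes.

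Of 10 genes for enzymes and partners in DNA methylation, the process Dppa3 opposes, 9 were tested. At 3 h 0 were higher and 1 was lower, or 0 and 2 under TMM and 1 and 0 by UMIs per cell. At 6 h 0 were higher and 3 were lower, or 0 and 4 under TMM and 0 and 3 by UMIs per cell. Tet2, which oxidises methylated cytosine, was at 89.7, 62.5 and 34.4 CPM, with log2 ratios of -0.52 and -1.38. Tet1 was at 328 and 323 CPM in the control and at 3 h and at 179 CPM at 6 h, a ratio of -0.87. Dnmt3b, a de novo methyltransferase gene, was at -0.61 at 6 h. Uhrf1, the direct partner, was at 134, 147 and 142 CPM, and its 6 h ratio of 0.09 became -0.06 under TMM.

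Dppa5a was by far the most abundant member. It lies at chr9:78367052-78368177 on the minus strand. Its level was 4771 CPM in control cells, 5327 after 3 h and 5475 after 6 h, which corresponds to 243, 327 and 300.8 UMIs per cell. The log2 ratios of 0.16 and 0.20 lay within 0.05 of the median of all genes at both times. From 3 h to 6 h the ratio was 0.04 under CPM, -0.004 under TMM and -0.12 by UMIs per cell, so no direction can be given. Ooep, a maternal KH-domain gene 7932 bases away, was at 242, 259 and 276 CPM. The pseudogenes Dppa5b and Dppa5c are not among the listed genes, and how reads shared with them were counted is not given in the sources used here.

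Tdh lies at chr14:63492347-63509092 on the minus strand. It was at 572 CPM in control cells, 599 after 3 h and 518 after 6 h. The 3 h ratio was 0.07 (0.05 to 0.08) under CPM, -0.04 under TMM and 0.34 by UMIs per cell. The 6 h ratio was -0.14 (-0.16 to -0.13), and -0.21 against 3 h, and both were negative under every scaling. Gm17232, annotated antisense to Tdh, reached at most 0.143 CPM.

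Genes of glycine and one-carbon metabolism, to which Tdh feeds carbon, were found on both sides of the control. Of 17 genes 15 were tested. At 3 h 2 were higher and 1 lower, or 0 and 2 under TMM and 3 and 1 by UMIs per cell. At 6 h 3 were higher and 3 lower, or 3 and 6 under TMM and 3 and 2 by UMIs per cell. Shmt1, the cytosolic serine hydroxymethyltransferase gene, was at 73.6, 39.0 and 23.7 CPM, with log2 ratios of -0.92 and -1.64. Mthfd2, which acts in mitochondrial folate metabolism, was at 195, 145 and 96.8 CPM, with -1.01 at 6 h, and Psat1 of serine synthesis was at -0.54. Amt, of the glycine cleavage system, was at 31.3, 46.7 and 71.0 CPM, with 0.57 and 1.18, the former 0.46 under TMM. Tyms, the thymidylate synthase gene, was at 160.0, 231 and 290.6 CPM, with 0.53 and 0.86, the former 0.42 under TMM.

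Of 30 further stem cell marker genes, 27 were tested. At 3 h 5 were higher and 0 lower, or 1 and 1 under TMM and 11 and 0 by UMIs per cell. At 6 h 4 were higher and 5 lower under all 3 scalings. Eras, a Ras-family gene of stem cells, was at 59.6, 59.5 and 28.4 CPM, with -1.07 at 6 h. L1td1, which encodes an RNA-binding protein, was at 734, 681 and 386 CPM, with -0.93. Like Utf1, Eras and L1td1 lay within 0.15 log2 of the control at 3 h under CPM. Fbxo15 was higher at both times, at 51.8, 103 and 126 CPM, or 0.99 and 1.28.

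The shape of each gene over the 3 libraries was compared with 5569 genes of at least 20 CPM by the Euclidean distance between pairs of log2 ratios, at 3 h and at 6 h. The nearest to Fgf4 were Rpl36al (distance 0.016), Rexo2 and Aimp1. Those nearest to Utf1 were Ercc6l (0.019), Hspg2 and Piezo1. Dppa2 was nearest to Ints5 (0.0068), Nip7 and Lmo4, and Dppa4 to Coa7 (0.0086), D030056L22Rik and Mtss1. Dppa5a was nearest to Snupn (0.0035), Rabep1 and Pelp1, and Tdh to Cdk12 (0.0042), Kdelr2 and Krit1. For Dppa3 the distances were larger, with Ccs at 0.126, Faap20 at 0.132 and Dscc1 at 0.142. Its counting intervals at 3 h and 6 h held the ratios of all 3 genes, so no unusual shape is shown. Distances rest on 3 libraries and describe these values only.

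Detection per cell was compared after each cell had been thinned at random to 15000 UMIs, the minimum set for a cell, so that no cell was left out. Dppa5a, Tdh and Utf1 were found in nearly every cell, with thinned shares of 97.4% to 100%. Free RNA at 10% of UMIs would by itself give 99.5% to 99.7% for Dppa5a, 38.5% to 49.5% for Tdh and 26.0% to 46.2% for Utf1, so the share of Dppa5a carries no information. The Fgf4 share was 55.9% for the control (exact 95% interval 53.8 to 58.0), 42.3% after 3 h (39.9 to 44.6) and 39.9% after 6 h (38.0 to 41.8), so both treated intervals lay below that of the control. Without thinning it was 85.7%, 81.0% and 75.6%. If 10% of the UMIs of each cell were free RNA, 8.50%, 5.73% and 5.94% of thinned cells would carry an Fgf4 UMI from it. The Dppa2 share was 79.1%, 83.8% and 80.8%, and the Dppa4 share 75.4%, 83.8% and 76.6%. For both genes the 3 h interval lay above the control interval, in the order of their CPM, and 10% free RNA would give 10.9% to 17.7%.

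At 6 h Utf1 was lower than in the control at the low, middle and high end of its counts per cell. In the thinned control cells the median was 8 UMIs with a 5th to 95th percentile of 3 to 14, at 3 h it was 7 (2 to 14) and at 6 h 5 (1 to 10). At least 10 UMIs were found in 31.8%, 25.6% and 7.67% of cells. The spread beyond counting noise, measured as the excess squared coefficient of variation (variance minus mean, over the squared mean), was 0.062 for the control, 0.091 after 3 h and 0.148 after 6 h. This order was the same in all 9 thinned settings, where the control ranged from 0.061 to 0.078, the 3 h library from 0.075 to 0.099 and the 6 h library from 0.144 to 0.169. Genes of like mean had medians of 0.035, 0.038 and 0.035. The lower level of Utf1 at 6 h was thus accompanied by a wider relative spread between cells.

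Dppa3 was found in few cells and was uneven among them. A UMI was present in 3.11% of thinned control cells (2.42 to 3.93), and in 4.31% (3.41 to 5.38) after 3 h and 8.69% (7.63 to 9.85) after 6 h, or 8.55%, 12.3% and 21.8% without thinning. The shares that 10% free RNA would give were 0.457%, 0.859% and 1.48%. At least 2 UMIs were found in 18, 23 and 62 cells, and the richest cell held 8, 5 and 11. Spread evenly at random, the same UMIs would have reached 4.56%, 6.67% and 12.9% of cells. Its excess squared coefficient of variation was 29.3, 17.6 and 11.6, exceeded by 14 of 843, 7 of 948 and 2 of 1198 genes of like mean. With other thinning seeds the control value was 10.3 to 25.3, so no order of the libraries is read from these numbers.

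**Figure D3:**
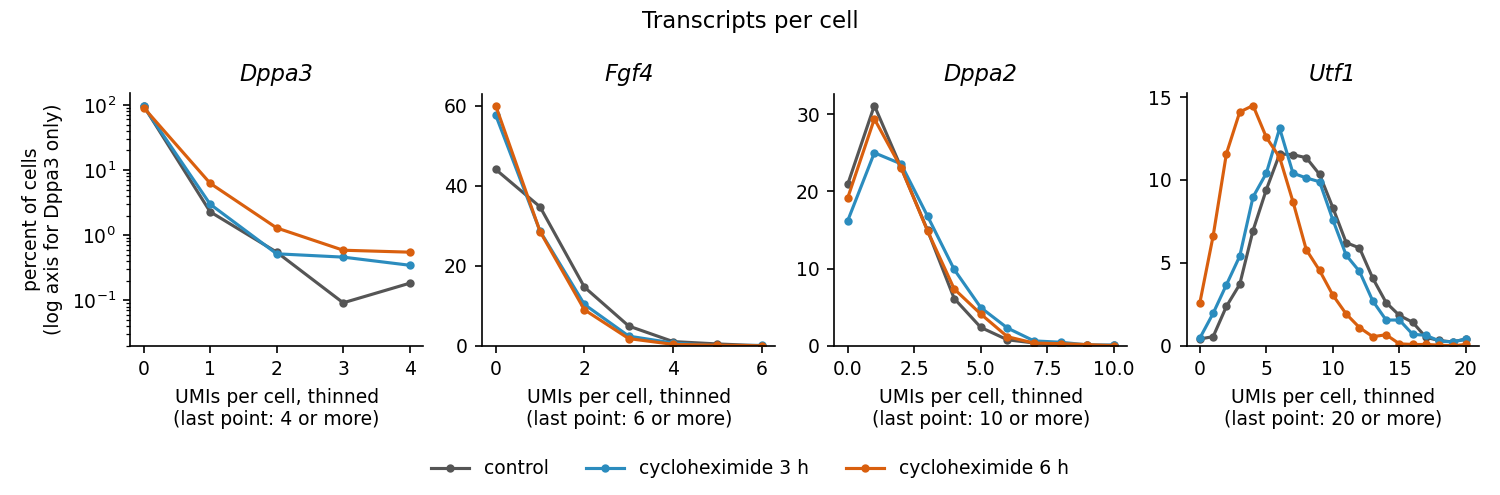
Percent of cells by the number of UMIs of Dppa3 (log axis), Fgf4, Dppa2 and Utf1 per cell after thinning to 15000 UMIs, with 1 line per library. The Utf1 line moves to the left at 6 h, the Fgf4 lines of both treated libraries have more cells at 0 than the control, and over 90% of cells in every library have no Dppa3 UMI.

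For the other genes the spread was smaller. Dppa5a stood above most genes of like mean, with 0.090, 0.072 and 0.068, exceeded by 0 of 29, 3 of 22 and 4 of 19 such genes, and its control value was the highest in all 9 thinned settings but the lowest without thinning. Tdh was at 0.074, 0.075 and 0.079, and its 6 h value was above both others in all 9 thinned settings. The difference was small, as the control ranged from 0.065 to 0.079 and the 6 h library from 0.078 to 0.097. Fgf4 was at 0.107, 0.301 and 0.233, but its control value ranged from 0.100 to 0.245 over thinned settings and overlapped the other libraries. Dppa4 was at 0.087, 0.043 and 0.104. Dppa2 had 0.192 in the control, and this rested on 1 cell with 52 Dppa2 UMIs of 27558, or 27 after thinning, where the next cell had 10. Without that cell the control value was 0.094, and since the 3 h value ranged from 0.071 to 0.131 over thinned settings, no order is read for Dppa2 either.

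**Figure D4:**
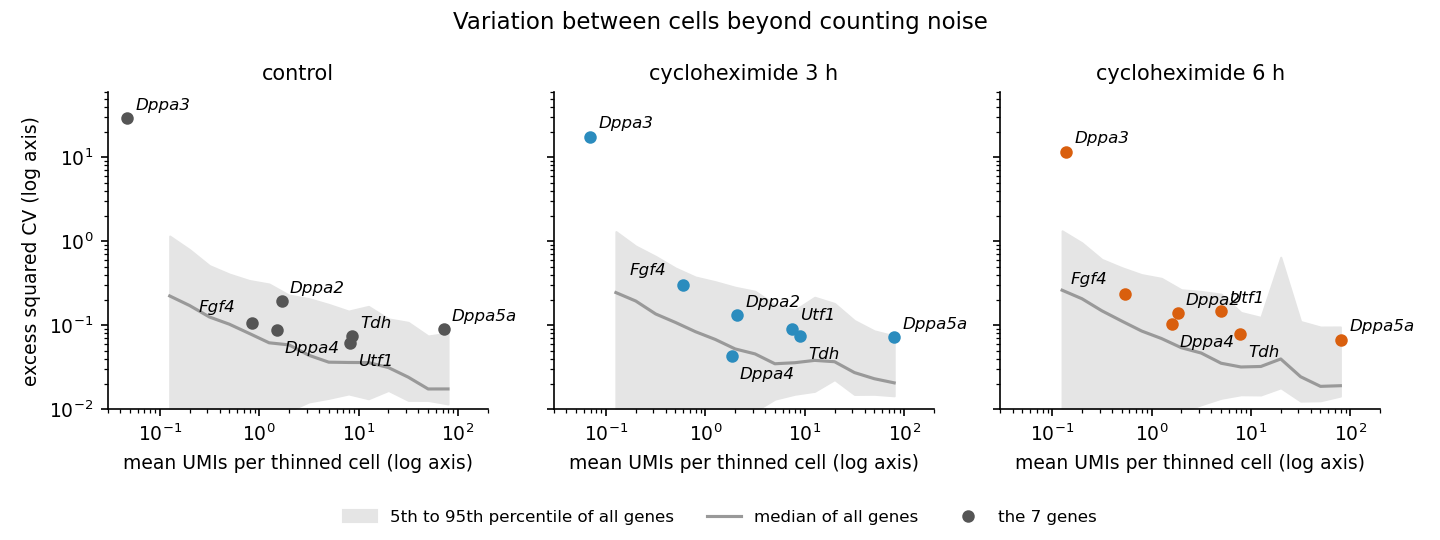
Excess squared coefficient of variation against mean UMIs per thinned cell for the 7 genes in each library, both on log axes, over the 5th to 95th percentile and the median of all genes in bins of mean. Dppa3 lies far above the grey band at 6 h. Its means of 0.047 in the control and 0.069 at 3 h lie to the left of where the band begins. Utf1 moves from 0.062 in the control to 0.148 at 6 h while its mean decreases.

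Across cells the measured correlations between the 7 genes were small. Pearson correlations of log counts, over 2187, 1739 and 2554 thinned cells that share library and depth, ranged from -0.14 to 0.17 over all pairs and libraries. The neighbours Dppa2 and Dppa4 had 0.02, 0.08 and 0.10 in the order control, 3 h and 6 h. Tdh and Utf1 had 0.15, 0.14 and 0.13, and Dppa5a and Tdh 0.11, 0.11 and 0.14. Counting noise weakens correlations in such sparse counts. These values are thus descriptions only and do not show that the genes vary independently.

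The genes of highest correlation in control cells give some context. For Dppa5a they were the heat shock gene Hspb1 (0.28), its neighbour Ooep (0.26) and the ubiquitin gene Ubb (0.25), and Ooep stayed at 0.24 and 0.29 in the treated libraries. For Tdh they were Ifitm2 (0.19), Lap3 (0.16) and Chchd10 (0.16), and for Utf1 Gapdh (0.20), Ppia (0.20) and Eif5a (0.19). Gapdh was at 0.12 and 0.06 with Utf1 after 3 h and 6 h. In 6 h cells the genes of highest correlation with Utf1 were the early response gene Ier2 (0.21), G3bp2 (0.20) and the mitotic gene Cdc20 (0.19), and the lowest were the histone genes Hist1h2ap and Hist1h2ae (-0.24 each, 0.08 and 0.01 in control cells), named after their values had been seen. For Fgf4 the highest was the nuclear RNA Malat1 (0.15), ahead of Ankrd11 and Tasor (0.11 each). The correlations of Dppa2 and Dppa4 peaked at 0.09 and 0.08, led by Hspb1, Tmsb4x and 2610318N02Rik for Dppa2 and by Arl4a, Slc25a4 and Srsf11 for Dppa4. For Dppa3 the highest were the ribosomal protein genes Rpl23 (0.23) and Rpl19 (0.20), followed by Ifitm1 (0.13), and Rpl23 stayed at 0.18 and 0.28 at 3 h and 6 h, with Rpl19 at 0.19 and 0.26.

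Rpl19 and Rpl23 were then examined together, a step taken after these correlations had been seen. Their summed UMIs per thinned cell had a main group around the library median and a minor group near 2 times it. Cells above 1.5 times the median numbered 138 of 2187 in the control (6.31%), 123 of 1739 at 3 h (7.07%) and 173 of 2554 at 6 h (6.77%), and 69, 48 and 68 cells lay within 10% of that limit. They are a range of a score and not a named cell type. Median UMIs were 40746 in these cells and 43300 in the others in the control, 49743 and 52092 at 3 h, and 43416 and 46463 at 6 h.

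Dppa3 was concentrated in these cells. A Dppa3 UMI was present in 21.01% of them for the control (14.5 to 28.8), 22.0% after 3 h (15.0 to 30.3) and 42.2% after 6 h (34.7 to 49.9). In all other cells the shares were 1.90% (1.36 to 2.59), 2.97% (2.20 to 3.92) and 6.26% (5.32 to 7.31). The small set thus held 51.0%, 40.0% and 43.9% of the Dppa3 UMIs of its library. The excess squared coefficient of variation of Dppa3 was 4.36, 3.10 and 1.90 within the set and 31.8, 23.3 and 12.1 outside it. These values come from 1 thinning draw. Outside the set 39 control cells held a Dppa3 UMI, and 2 held 3 or more, so no order of the libraries is read. Since Rpl19 and Rpl23 were picked by their correlation with Dppa3 in the control, the control contrast is a description of that choice. Limits of 1.3 and 1.8 times the median gave shares of 14.6% to 43.2% in the high cells.

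The Dppa3 ratios of the 2 sets of cells rested on few UMIs at 3 h. In thinned cells the high set held 52 Dppa3 UMIs in the control and 48 at 3 h. The control and 3 h detection intervals overlapped in both sets, so no difference between the sets is read at 3 h. Without the high cells Dppa3 was at 0.72 log2 at 3 h and 1.63 at 6 h, and within them it was at -0.03 and 0.95, from CPM summed over unthinned cells. At 6 h Dppa3 was higher in both sets. The log2 ratio of Fgf4 in the high cells to the others was -0.18 in the control (-0.48 to 0.11). It was -0.60 (-1.04 to -0.19) after 3 h and -0.47 (-0.84 to -0.12) after 6 h. The 3 intervals overlapped, so no difference between the libraries is read. Dppa5a was lower in the high cells by log2 ratios of -0.27, -0.26 and -0.29 in the 3 libraries, and Tdh by -0.29, -0.23 and -0.22. Dppa4 was higher by 0.30, 0.17 and 0.36, with an interval at 3 h of -0.02 to 0.35.

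**Figure D5:**
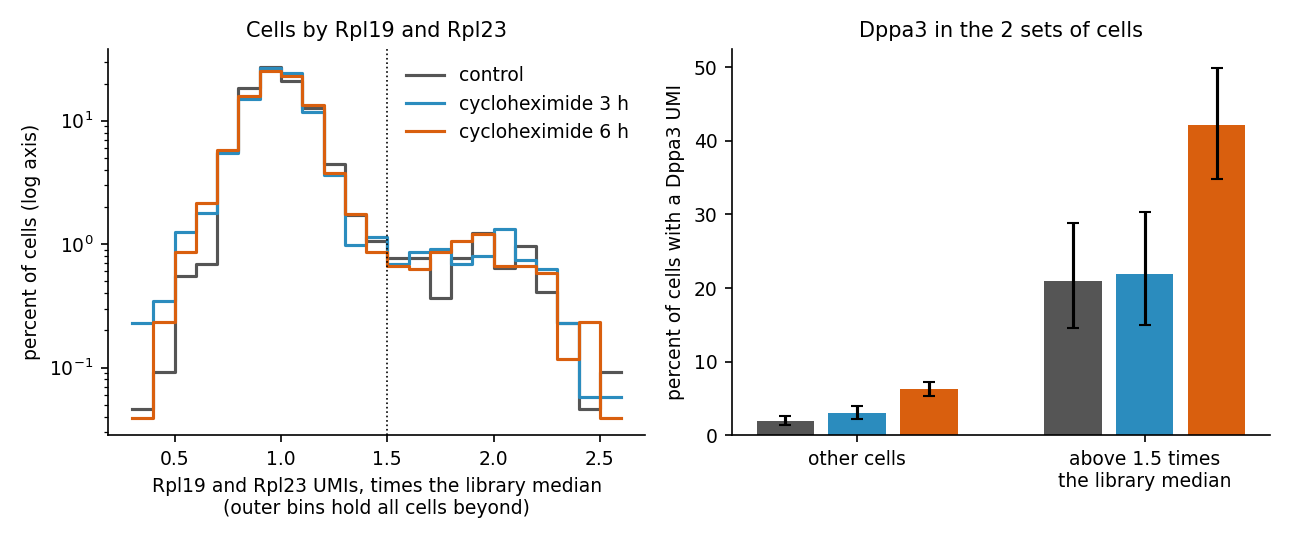
Left, percent of cells by summed Rpl19 and Rpl23 UMIs relative to the library median, on a log axis, with the limit of 1.5 dotted; right, percent of cells with a Dppa3 UMI among cells below and above that limit, with exact 95% intervals, in the same library colours. A minor group lies near 2 times the median in all 3 libraries, and the 6 h library reaches 42.2% in the high cells against 6.26% in the others.

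The high cells were also marked by position on 2 chromosomes. Rpl23 and Rpl19 lie on chromosome 11, and the 20 ranked genes from Cdk5rap3 to Grb7 around them were all higher in the high cells in all 3 libraries, with a median log2 ratio of 0.71, 0.73 and 0.81. Of the other 484 genes of chromosome 11, 10.3% were higher in all 3. On chromosome 8, 100 of the 110 genes up to Borcs8 were higher in all 3 libraries (90.9%), with a median log2 ratio of 0.48, 0.40 and 0.47, against 14.4% of the remaining 263 genes of that chromosome and 14.0% of 5167 genes elsewhere. The region limits were set after the values had been seen. Stmn2, a neuronal tubulin-binding protein gene on chromosome 3, had 6.12, 6.50 and 6.38 UMIs per thinned high cell and 0.785, 0.723 and 0.644 in the others. Dppa3 itself, on chromosome 6, lies in neither region.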

How the data were processed

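Per the labels' protocols, libraries were made with 10x Genomics 3′ v3 chemistry and sequenced on a NextSeq 2000. The authors deposited raw UMI counts per gene and barcode, and per the submitters' processing notes Cell Ranger 4.0.0 and mm10 were used. Every table listed 32285 genes by 6794880 barcodes, all before any calling of cells, and 32235 gene identifiers matched GENCODE M21 on GRCm38. The 7 genes, the gene lists and the measures were chosen with earlier results of these data known. Library totals were 127601369, 115188502 and 150987519 UMIs for the control, 3 h and 6 h, and the cells used held 87.3%, 92.8% and 92.9% of them. Log2 ratios of summed CPM used a prior of 0.5 counts, and genes needed a mean of 10 CPM to enter counts. Intervals were exact Poisson, conditional binomial and Clopper-Pearson at 95%, for counting error only. No doublet caller was run, and an alternative left out cells above 2 times the median UMIs. Named genes were the 7 genes, the 3 most correlated and the 3 nearest to each, and up to 3 at either end of each list by 6 h ratio. One gene that this rule picks is not reported here. Only 2 of the 7 genes had an entry in the promoter table. The ratio, interval and spread functions were tested on simulated data. Python 3.11.15, numpy 2.4.6, scipy 1.17.1, edgeR 4.0.16 (TMM) and DESeq2 1.42.0 (size factors, as an alternative) were used.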

Additional observations from a re-analysis of the deposited data

Results flagged for a closer look

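Tdh stood on opposite sides of the control at the 2 times, with a log2 ratio of 0.07 for 3 h and of -0.14 for 6 h and counting intervals that excluded 0 in both. The difference of 6 h minus 3 h was -0.21. It was not tested, since each group was 1 library and both ratios share the control. Under TMM the 3 h ratio was -0.04, so the opposite sides were not seen with that scaling. By UMIs per cell the ratios were 0.34 and -0.035, again on opposite sides.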

How the results depend on the processing

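No paired analysis was possible because each group had 1 library, and for the same reason no library could be left out in turn. The 3 members past 0.5 at 6 h kept their direction and stayed past it in all 13 alternatives. At 3 h the count of 1 (Fgf4, lower) became 3 by UMIs per cell, all higher and without Fgf4, 0 with no lower mitochondrial limit, 2 without cells above 2 times the median UMIs and 2 without cells of high Rpl19 and Rpl23. For 6 h against 3 h the count of 2 became 1 in those high cells alone, a choice made after seeing the data. The median of the 7 genes at 3 h was 0.048 under TMM, 0.044 under DESeq2, 0.43 by UMIs per cell, 0.11 with no lower mitochondrial limit, 0.14 without cells above 2 times the median UMIs, 0.17 after subtracting 10% free RNA, 0.14 as a mean of CPM per cell and 0.081 in the high cells. At 6 h it was -0.12 under TMM, -0.13 under DESeq2, 0.14 by UMIs per cell, 0.081 after subtracting free RNA and 0.11 in the high cells. For 6 h against 3 h it was -0.25 under TMM and under DESeq2, -0.36 by UMIs per cell and -0.068 in the high cells, beside -0.20. Members with a lower thinned share of cells than control numbered 2 at 3 h, and 1 at thinning depths of 10000 and 25000, unthinned and with each of 3 other seeds. At 6 h the count of 2 was the lowest found, with 5 unthinned, 4 with 1 other seed and 2 or 3 elsewhere. Members of higher excess squared coefficient of variation at 3 h numbered 3, and 6 unthinned and 2 to 4 elsewhere, and at 6 h 4, with 3 to 6 over the alternatives. Where scaling did not set the difference by its construction, the cause was not tested. Depth limits Dppa3 most, with 374 to 1214 UMIs per library.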
